A study of Mus musculus with 8 samples.

Results

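The p53 target genes were examined in mouse embryonic stem cells (ESCs) depleted of Hira, Ubn1 or Ubn2. The set held Trp53, which encodes p53, and 9 genes known to be activated by it, namely Cdkn1a, Mdm2, Ccng1, Trp53inp1, Phlda3, Bax, Bbc3, Zmat3 and Eda2r. They were found by gene symbol, and all 10 were present among the 55418 genes listed in the count tables. RNA-seq comprised 8 libraries, 2 from control ESCs and 2 from ESCs depleted of each gene. All came from the E14 line, with the strain given as 12910la, kept in serum and LIF on gelatin. Depleted cells received a pSuper puro plasmid carrying an shRNA, so each depletion was a knockdown in a transfected population and not a deletion. The control cells are called wild type in the labels and received the same vector, and the study describes its control shRNA as directed at luciferase. All cells were kept in puromycin for 3 days. Which of the shRNAs against each gene was used is not given in the sources used here, and nothing states that the 2 libraries of a group came from separate cultures, so the p-values measure only the spread between these libraries, which may be technical.

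Hira, Ubn1 and Ubn2 are subunits of the HIRA complex, a chaperone that deposits a histone H3 variant outside DNA replication. p53 is a transcription factor that is kept low by the ubiquitin ligase Mdm2 and is stabilised mainly as a protein, for example after DNA damage, whereupon it binds its response elements and activates genes for cell cycle arrest, apoptosis, DNA repair and its own inhibition. In ESCs, p53 is also known to restrain self-renewal and to act during differentiation. Only RNA was measured here, so neither the amount nor the binding of p53 was observed.

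Library totals on genes lay between 19710040 and 32706053 counts. In CPM, the count of a gene scaled to the size of its library (here adjusted with TMM factors), Hira was at 89.4 and 97.6 in control ESCs and at 10.0 and 10.4 after its depletion, a log2 fold change of -3.22 (edgeR adjusted p = 5.57e-15). Ubn1 stood at 53.02 and 44.1 CPM in control and at 23.8 in both libraries of its own depletion, a log2 fold change of -1.03 (edgeR adjusted p = 4.02e-07). Ubn2 stood at 50.1 and 51.7 CPM in control and at 30.1 and 24.6 CPM after Ubn2 depletion, a log2 fold change of -0.90 (edgeR adjusted p = 7.2e-07). Each targeted gene was therefore lowest in its own libraries, with more transcript left after Ubn1 and Ubn2 depletion than after Hira depletion. Summed over 10 markers, pluripotency genes were at 6980 and 7236 CPM in control and between 5824 and 6355 CPM in the depleted libraries. Not all 10 went down. After Hira, Ubn1 and Ubn2 depletion 4, 4 and 3 of them had a log2 fold change above 0, as did 51.1%, 49.6% and 49.6% of all genes.

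The p53 response element is made of 2 decamers, each with a core of C, 2 bases that are A or T, and G, between 3 purines and 3 pyrimidines. RefSeq promoter windows of build GRCm38.p6, from 250 bases before to 50 bases after a start, were searched for it. 8 of the 10 genes had a window, and Trp53inp1 and Zmat3 had none. Adjoining decamers with intact cores and at most 2 mismatches elsewhere were found in 0.158% of 32851 windows. Of the p53 target genes, 1 held such a match, Cdkn1a, in 1 of its 2 windows and with 1 mismatch. A single perfect decamer was more common, in 8.36% of windows, and was found in 5 of the 8 genes. Counted per gene over all genes with a window, the shares were 0.189% for the pair and 9.55% for a decamer. Because the decamer pattern reads the same on both strands, each match counts for both. The longest match of each gene is shown 5′ to 3′ on the strand of the gene, with the matched bases in capitals. The longer match begins 51 bases before the start in that 1 of the 2 Cdkn1a windows, at chr17:29090928-29090947 on the plus strand. A further perfect Cdkn1a decamer, at chr17:29090906-29090915, begins 73 bases before the start and is not shown. The decamers of Trp53 (chr11:69580284-69580293, plus), Mdm2 (chr10:117710935-117710944, minus), Ccng1 (chr11:40755462-40755471, minus) and Bax (chr7:45467090-45467099, minus) begin 75, 186, 185 and 201 bases before their starts.
Cdkn1a: ttcagGAACATGTCTTGACATGTTCagccc
Trp53: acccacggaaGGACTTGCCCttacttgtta
Mdm2: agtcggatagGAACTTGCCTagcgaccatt
Ccng1: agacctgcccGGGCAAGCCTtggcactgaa
Bax: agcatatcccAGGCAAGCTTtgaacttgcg
A match describes these letters only, and elements further from the start lie outside the windows.

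In control ESCs all 10 genes were expressed. Per kilobase of exon (GENCODE M21, GRCm38), the level was highest for Bax at 129 ± 0.730 CPM per kb (SD, n = 2). Trp53 at 67.0 ± 2.29 and Ccng1 at 62.9 ± 6.04 CPM per kb followed, and these neighbours overlapped between libraries. Trp53inp1 was at 35.1 ± 3.85, Phlda3 at 29.4 ± 2.16 and Bbc3 at 20.6 ± 2.53 CPM per kb. Cdkn1a at 18.2 ± 0.319 and Mdm2 at 18.0 ± 0.336 CPM per kb could not be separated, nor could Zmat3 at 10.9 ± 1.27 and Eda2r at 10.7 ± 0.352 CPM per kb. Mdm2 and Cdkn1a, the genes for the main inhibitor of p53 and for the arrest protein p21, were thus at similar levels in the control cells.

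Against control, depletion of Ubn2 raised 5 of the 10 genes, depletion of Hira raised 3, and depletion of Ubn1 raised none at the threshold used, which was over 1.5-fold at an adjusted p under 0.05. After Ubn2 depletion Cdkn1a rose most, by 2.36-fold, followed by Phlda3 at 1.86-fold, Mdm2 at 1.82-fold, Ccng1 at 1.69-fold and Trp53 itself at 1.53-fold. After Hira depletion Phlda3 rose 1.97-fold, and Mdm2 and Eda2r rose 1.52-fold each. None of the 10 was called lower after any depletion by edgeR or DESeq2, and 0 were lower at an unadjusted edgeR p under 0.05. The 3 comparisons share the control libraries, so they are set side by side here and are not independent of each other.

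**Figure D1:**
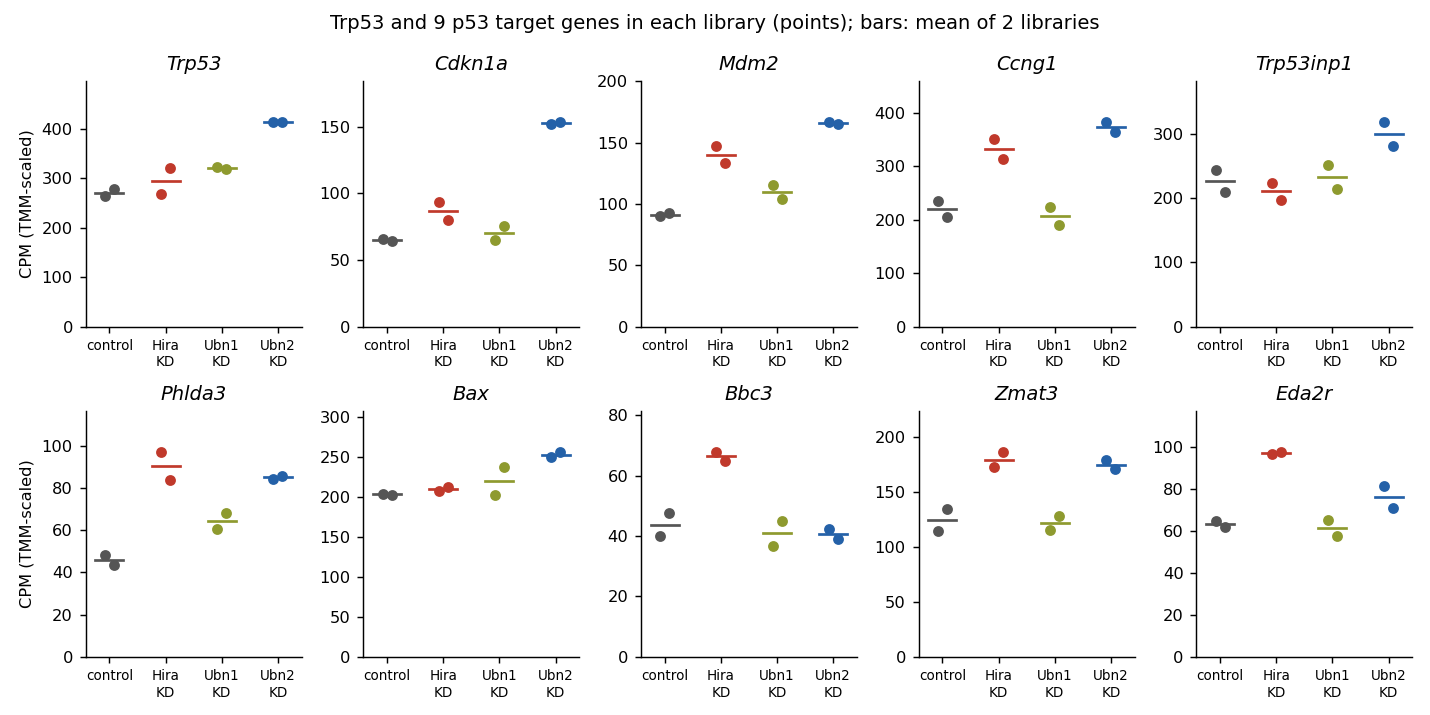
CPM of Trp53 and 9 p53 target genes in each library, 1 panel per gene, with each vertical axis starting at 0. Points are libraries and bars the mean of 2 libraries. Cdkn1a is at 152 and 153 CPM after Ubn2 depletion and at no more than 93.7 CPM elsewhere, whereas Bbc3 is highest after Hira depletion.

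For Hira depletion, 3 of 10 genes were called higher and 0 lower, where 10.8% of the 19035 genes tested were called higher and 5.40% lower. The median log2 fold change was 0.54, beside 0.01 over all genes tested, and 9 of 10 values were above 0, as were 51.1% of those of all genes. Without the fold threshold 7 genes passed, each higher, where 34.9% of all genes passed in either direction, and the depleted libraries lay above both control libraries for 8, as they did for 35.6% of all genes. Several values sat close to the fold threshold. Mdm2 at 1.518-fold and Eda2r at 1.519-fold were just inside it, while Ccng1 at 1.489-fold and Bbc3 at 1.495-fold were just outside. The count rested on this. On leaving out a single library the count was as low as 2. The Mdm2 call was lost without Control replicate 1 or Hira replicate 1, and the Eda2r call without Control replicate 2. The count was 5 without Hira replicate 2, when every library had to hold 10 counts or more, or when 8 libraries were fitted together.

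For Ubn1 depletion, edgeR and DESeq2 each called 0 of 10 genes higher and 0 lower, beside 1.53% and 1.56% of 18373 genes in edgeR, and 3 genes had an unadjusted edgeR p under 0.05. At an adjusted p under 0.05 of any fold, 1 gene passed, Phlda3, and 7.76% of all genes passed in either direction. The median log2 fold change was 0.08, against a median of -0.00 over all genes. The Ubn1-depleted libraries lay above both control libraries for Trp53, Mdm2 and Phlda3, and overlapped with control for the other 7, where 26.5% of all genes lay above in this way, so 3 of 10 is near the background.

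For Ubn2 depletion, 5 of 10 genes were called higher and 0 lower, where 9.59% of 18219 genes were called higher and 8.75% lower. The median log2 fold change was 0.55, beside -0.00 over all genes tested. Without the fold threshold 9 genes passed, each higher, where 39.1% of all genes passed in either direction. These were all but Bbc3, and the same 9 had both Ubn2-depleted libraries above both control libraries, as did 34.7% of all genes. In bulk RNA, more cells of a responding kind and more RNA in each cell cannot be told apart.

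**Figure D2:**
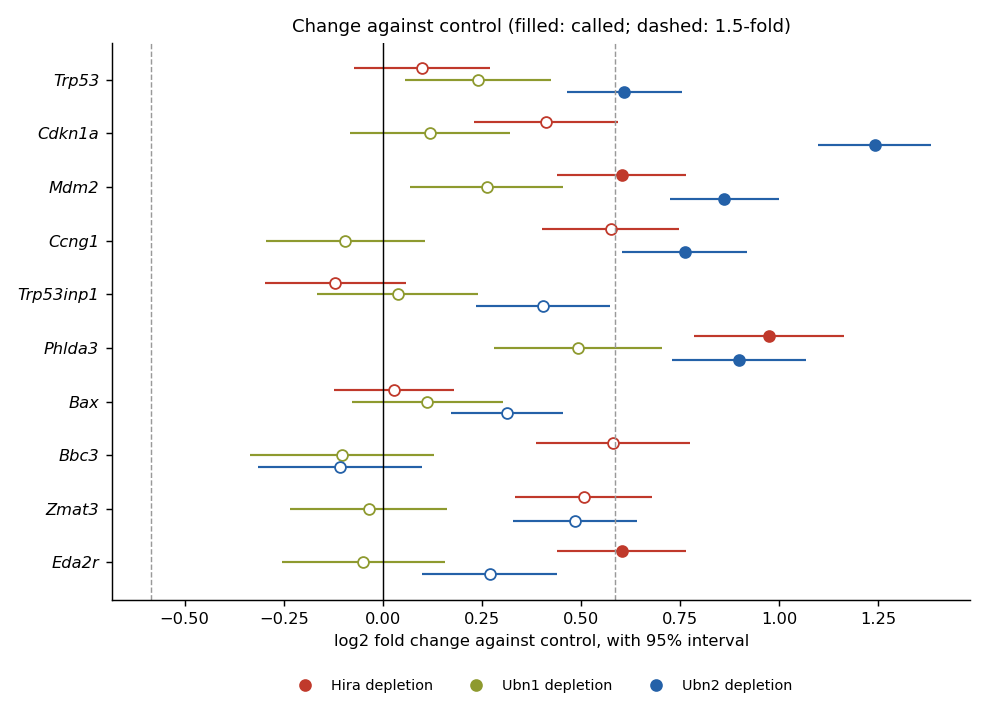
Log2 fold change of each p53 target gene against control after Hira, Ubn1 and Ubn2 depletion, with 95% intervals. Filled points passed an adjusted p under 0.05 and 1.5-fold. Filled points are Mdm2, Phlda3 and Eda2r after Hira depletion and Trp53, Cdkn1a, Mdm2, Ccng1 and Phlda3 after Ubn2 depletion, and Ubn1 depletion has none.

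Trp53 is the source of the p53 protein itself. Its level was 265 and 278 CPM in control ESCs, 268 and 320 with Hira depleted, 322 and 319 with Ubn1 depleted, and 414 in both Ubn2-depleted libraries. The Ubn2-depleted libraries were therefore above every other library. Trp53 rose after Ubn2 depletion with a log2 fold change of 0.61 ± 0.07 (SE), at an edgeR adjusted p of 6.78e-07. That call sat near the fold threshold, and without Control replicate 1 the log2 value was 0.57, under it. The log2 fold change was 0.24 ± 0.09 (adjusted p = 0.0977) after Ubn1 depletion and 0.10 ± 0.08 (adjusted p = 0.384) after Hira depletion, where the 2 libraries differed by more than the control libraries did. The Trp53 pseudogene Trp53-ps, which could share reads, held between 0 and 13 counts in a library.

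Mdm2 encodes the ubiquitin ligase that marks p53 for destruction and is itself a p53 target, which makes a negative loop. Its level was 90.1 and 92.5 CPM in control, 147 and 133 with Hira depleted, 116 and 104 with Ubn1 depleted, and 167 and 165 with Ubn2 depleted, with no overlap between any depletion and control. Mdm2 rose after Ubn2 depletion (log2 fold change 0.86 ± 0.07, edgeR adjusted p = 2.2e-09) and after Hira depletion (0.60 ± 0.08, adjusted p = 5.76e-06). The Hira call was lost without Control replicate 1, at a log2 value of 0.58, and without Hira replicate 1, at 0.53. After Ubn1 depletion the log2 fold change was 0.26 ± 0.09 (adjusted p = 0.0843).

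Ccng1 encodes cyclin G1, which brings a phosphatase to Mdm2 and so acts back on p53. It was at 236 and 206 CPM in control, 351 and 314 with Hira depleted, 224 and 190 with Ubn1 depleted, and 383 and 365 with Ubn2 depleted. The Hira and Ubn2 libraries were above all control and Ubn1 libraries. Ccng1 rose after Ubn2 depletion, by a log2 fold change of 0.76 ± 0.08 (edgeR adjusted p = 1.05e-07). After Hira depletion its value of 0.57 ± 0.08 had an adjusted p of 1.93e-05 but stayed under the fold threshold. It was over the threshold without Control replicate 1 and without Hira replicate 2, at 0.67 and 0.65. After Ubn1 depletion it was -0.09 ± 0.10 (adjusted p = 0.626).

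Cdkn1a encodes p21, the inhibitor of cyclin dependent kinases through which p53 arrests the cell cycle, and is the gene with the longer promoter match. Its level was 65.4 and 63.8 CPM in control, 93.7 and 79.6 with Hira depleted, 65.2 and 75.2 with Ubn1 depleted, and 152 and 153 with Ubn2 depleted. Ubn2-depleted cells thus stood apart from all others, and Ubn1-depleted cells overlapped with control. The rise after Ubn2 depletion had a log2 fold change of 1.24 ± 0.07 (edgeR adjusted p = 1.94e-11), and 96.0% of genes tested had a lower value. After Hira depletion the value was 0.41 ± 0.09 (adjusted p = 9.34e-04), under the fold threshold, and after Ubn1 depletion it was 0.12 ± 0.10 (adjusted p = 0.527). An antisense gene model, AC167363.2, shares 273 exon bases with Cdkn1a and held between 242 and 521 counts. The strand setting of the counting is not given in the sources used here, so reads in that stretch cannot be told apart.

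Phlda3 encodes a small membrane-binding protein that hinders the survival kinase Akt. It was at 48.1 and 43.4 CPM in control, 97.1 and 84.1 with Hira depleted, 60.6 and 68.1 with Ubn1 depleted, and 84.4 and 85.8 with Ubn2 depleted. Every depleted library was above both control libraries. Phlda3 rose after Hira depletion (log2 fold change 0.97 ± 0.09, edgeR adjusted p = 1.01e-07) and after Ubn2 depletion (0.90 ± 0.08, adjusted p = 2.76e-08). After Ubn1 depletion its value of 0.49 ± 0.10 had an adjusted p of 0.00235 and was under the fold threshold.

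Bax and Bbc3 encode proteins of the mitochondrial route to apoptosis. Bax is the effector that opens the outer membrane. It was at 204 and 202 CPM in control, 207 and 212 with Hira depleted, 203 and 237 with Ubn1 depleted, and 250 and 256 with Ubn2 depleted. The Ubn2 libraries were highest, but the Ubn1 libraries were spread widely and 1 of them came near, and the direct difference of Ubn2 from Ubn1 depletion had an edgeR adjusted p of 0.174. The log2 fold change after Ubn2 depletion was 0.31 ± 0.07 (edgeR adjusted p = 9.08e-04), under the fold threshold, and the values were 0.03 ± 0.07 after Hira depletion and 0.11 ± 0.09 after Ubn1 depletion. Bax shares 192 exon bases on the same strand with the gene model Gm45808, which held between 2785 and 4646 counts, so part of its reads may have been left uncounted or counted there.

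Bbc3 encodes Puma, which frees Bax from its inhibitors. It was at 40.0 and 47.6 CPM in control, 67.8 and 64.9 with Hira depleted, 36.8 and 45.0 with Ubn1 depleted, and 42.3 and 39.1 with Ubn2 depleted. The Hira libraries alone lay above both control libraries. The log2 fold change after Hira depletion was 0.58 ± 0.09 with an edgeR adjusted p of 5.97e-05, just under the fold threshold, and passed it without Control replicate 2 at 0.71 and without Hira replicate 2 at 0.61. After Ubn2 depletion the value was -0.11 ± 0.10 (adjusted p = 0.412), with a sign opposite to that of the other 9 genes.

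Eda2r encodes a receptor of the tumour necrosis factor family that binds ectodysplasin A2. Its level was 64.7 and 61.8 CPM in control, 96.7 and 97.4 with Hira depleted, 64.9 and 57.5 with Ubn1 depleted, and 81.4 and 71.0 with Ubn2 depleted. The Hira libraries were highest. Eda2r rose after Hira depletion (log2 fold change 0.60 ± 0.08, edgeR adjusted p = 5.81e-06), a call that was lost without Control replicate 2, at 0.56. After Ubn2 depletion the value was 0.27 ± 0.08 (adjusted p = 0.0125), under the fold threshold, and after Ubn1 depletion it was -0.05 ± 0.10.

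Zmat3 encodes a zinc finger protein that binds RNA. It was at 115 and 135 CPM in control, 173 and 187 with Hira depleted, 116 and 129 with Ubn1 depleted, and 179 and 171 with Ubn2 depleted. Hira and Ubn2 libraries lay above control and Ubn1 libraries, by less than the fold threshold. The log2 fold change was 0.51 ± 0.08 (edgeR adjusted p = 7.85e-05) after Hira depletion and 0.49 ± 0.08 (adjusted p = 3.18e-05) after Ubn2 depletion, and both passed the threshold without Control replicate 2, at 0.63 and 0.61. Trp53inp1 encodes a nuclear protein that promotes p53 activity and autophagy. It was at 245 and 210 CPM in control, 225 and 198 with Hira depleted, 252 and 215 with Ubn1 depleted, and 319 and 282 with Ubn2 depleted. Its libraries overlapped with control except after Ubn2 depletion, where the log2 fold change was 0.40 ± 0.08 (adjusted p = 4.68e-04), under the fold threshold.

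The depletions were then compared with each other, which asks whether the p53 target genes differed between cells with less of different subunits. Between Hira and Ubn2 depletion 1 gene was called higher after Hira depletion and 1 lower, where 12.0% of 18563 genes were called higher and 5.61% lower. Without the fold threshold 2 were higher and 5 lower, a total of 7, where 35.8% of all genes passed in either direction. The differences thus ran both ways, but the 1 higher and 1 lower call were near the shares of all genes called. Bbc3 was 1.64-fold higher after Hira depletion, at a log2 difference of 0.71 ± 0.08 (edgeR adjusted p = 2.24e-05). Cdkn1a was lower after Hira depletion, at a log2 difference of -0.81 ± 0.08 (adjusted p = 6.28e-06). Trp53 and Trp53inp1 had log2 differences of -0.49 ± 0.09 (adjusted p = 6.38e-04) and -0.50 ± 0.09 (adjusted p = 4.79e-04), both short of the fold threshold. Trp53inp1 passed it without Hira replicate 1 or Ubn2 replicate 2, and Trp53 without Hira replicate 2, which made 2 genes called lower in each case. Eda2r stood at 0.36 ± 0.08 (adjusted p = 0.00332). Phlda3 at 0.10 (95% interval -0.08 to 0.27) and Zmat3 at 0.04 (-0.11 to 0.20) showed no difference past the threshold, and their intervals exclude a 1.5-fold difference.

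Between Hira and Ubn1 depletion, 3 genes were called higher after Hira depletion and 0 lower, where 9.52% of 18819 genes were called higher and 3.16% lower. At any fold 7 passed, each higher after Hira depletion, where 24.3% of all genes passed in either direction. The log2 differences of the 3 called genes were 0.71 ± 0.11 for Bbc3, 0.69 ± 0.11 for Ccng1 and 0.67 ± 0.10 for Eda2r, with edgeR adjusted p-values of 2.69e-05, 3.13e-05 and 1.97e-05. Each of these calls was lost on leaving out an Ubn1 library, with Bbc3 at 0.55 without Ubn1 replicate 1, and Ccng1 at 0.57 and Eda2r at 0.58 without Ubn1 replicate 2. Cdkn1a differed by 0.32 ± 0.11 (adjusted p = 0.0289), under the fold threshold.

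Between Ubn2 and Ubn1 depletion, 3 genes were called higher after Ubn2 depletion and 0 lower, where 4.61% of 18205 genes were called higher and 4.09% lower. At any fold 8 passed, each higher after Ubn2 depletion, where 16.6% of all genes passed in either direction. Cdkn1a had a log2 difference of 1.12 ± 0.09 (edgeR adjusted p = 4.63e-07), Ccng1 of 0.85 ± 0.10 (adjusted p = 1.77e-05) and Mdm2 of 0.60 ± 0.09 (adjusted p = 1.53e-04). The Mdm2 call was lost without Ubn1 replicate 2, at 0.52. Bbc3 did not separate, at -0.01 with a 95% interval from -0.25 to 0.23.

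**Figure D3:**
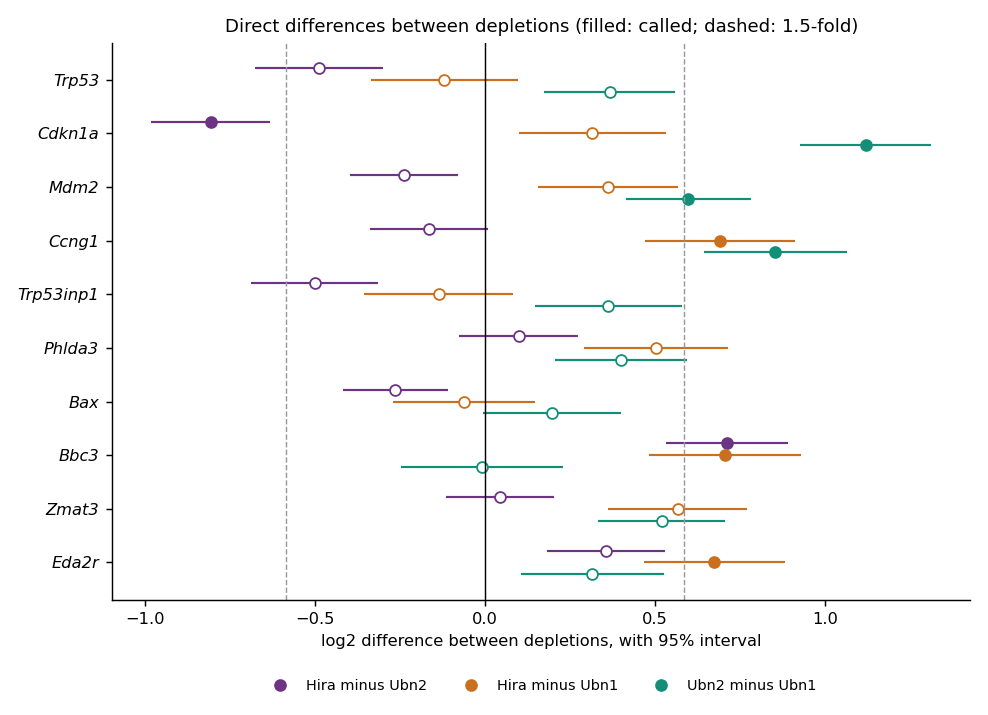
Log2 difference of each p53 target gene between pairs of depletions, with 95% intervals, and filled points past an adjusted p under 0.05 and 1.5-fold. Cdkn1a is lower in Hira than in Ubn2 depletion and higher in Ubn2 than in Ubn1 depletion, and Bbc3 is higher in Hira than in either other depletion.

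A further 38 genes known to be activated by p53 were counted in the same fits, and all 38 were tested. After Ubn2 depletion 15 were called higher and 0 lower by edgeR and by DESeq2, with 3 lower at an unadjusted p under 0.05, and the median log2 fold change was 0.40. Hira depletion gave 10 higher and 2 lower calls and a median of 0.31. After Ubn1 depletion 3 were higher and 0 lower by both tools, with 3 lower at an unadjusted p under 0.05, and the median was 0.15. The shares called higher over all genes were those given above for each depletion, 9.59%, 10.8% and 1.53%. Those called lower were 8.75%, 5.40% and 1.56%. The 2 lower calls after Hira depletion, 5.26% of the 38, were thus near the share of all genes.

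Perp, which encodes a membrane protein of desmosomes and apoptosis, was called after all 3 depletions. It was at 13.7 and 11.9 CPM in control, 61.7 and 60.9 with Hira depleted, 20.2 and 20.9 with Ubn1 depleted, and 51.2 and 47.5 with Ubn2 depleted. Its log2 fold changes were 2.25 ± 0.11, 0.69 ± 0.14 and 1.96 ± 0.11 after Hira, Ubn1 and Ubn2 depletion, with edgeR adjusted p-values of 9.87e-12, 0.00155 and 2.82e-11. Ak1, an adenylate kinase, rose from 57.4 and 53.9 CPM in control to 117 and 110 with Hira depleted and to 124 and 120 with Ubn2 depleted, with log2 fold changes of 1.01 ± 0.08 and 1.13 ± 0.07. Plk2, a polo-like kinase of the stress response, was at 31.9 and 30.9 CPM in control, 62.2 and 66.2 with Hira depleted, 45.6 and 40.1 with Ubn1 depleted and 72.8 and 74.5 with Ubn2 depleted, and rose by log2 fold changes of 1.02 ± 0.09 after Hira depletion and 1.23 ± 0.09 after Ubn2 depletion. Btg2, an antiproliferative regulator of mRNA decay, was at 41.2 and 40.6 CPM in control, 48.8 and 46.2 with Hira depleted and 90.4 and 91.2 with Ubn2 depleted, so that only the latter was called, at 1.15 ± 0.08. Directly, Btg2 was lower after Hira than after Ubn2 depletion by a log2 difference of -0.93 ± 0.08 (adjusted p = 9.08e-07). Dcxr, a carbonyl reductase, and Trp73, which encodes the p53 relative p73, were the other genes called after Ubn1 depletion, at 0.81 ± 0.16 and 0.68 ± 0.17. The 2 genes that fell after Hira depletion, named here after their values were seen, were Pmaip1, which encodes the apoptosis protein Noxa (-0.59, adjusted p = 5.45e-05), and Rrm2b, a ribonucleotide reductase subunit (-0.66, adjusted p = 0.0157). Leaving out Control replicate 1, Control replicate 2 or Hira replicate 2 left 1, 1 and 0 of these lower calls.

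**Figure D4:**
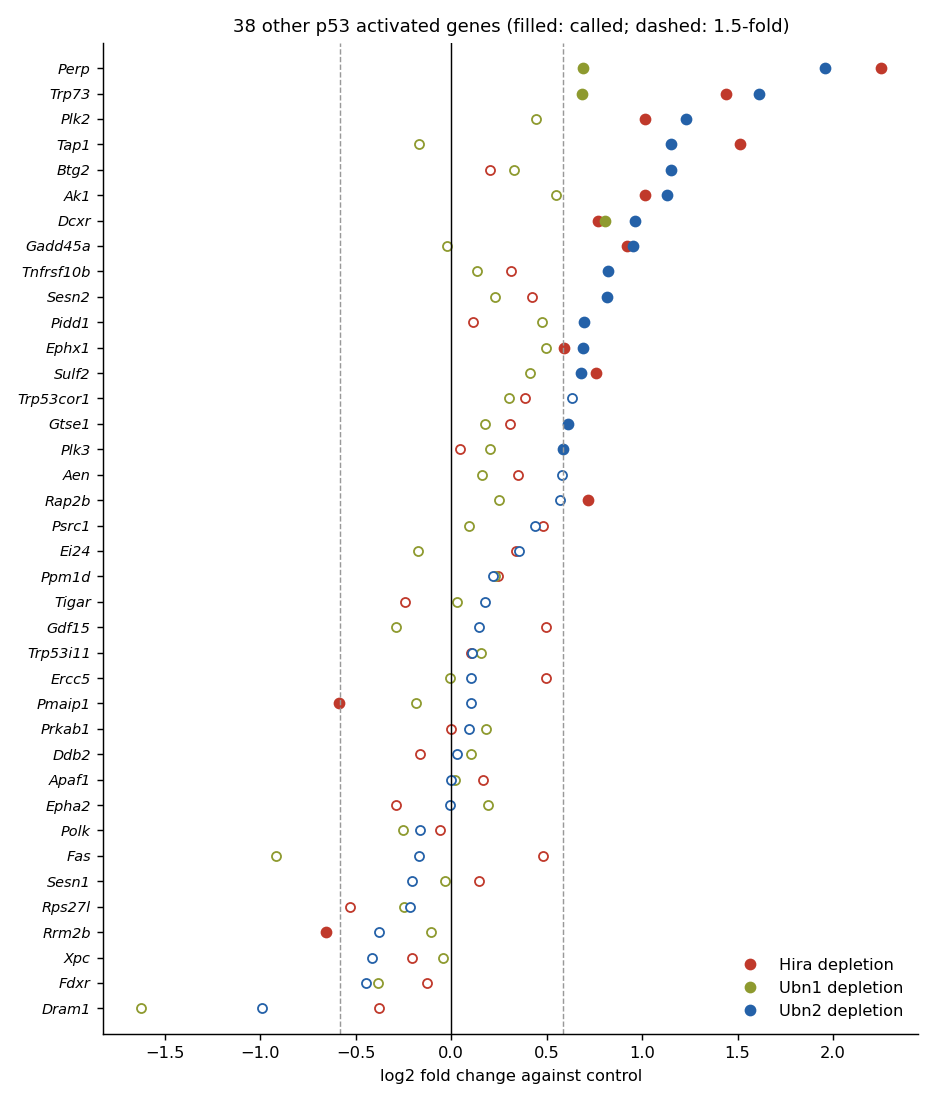
Log2 fold change against control of 38 other p53 activated genes after Hira, Ubn1 and Ubn2 depletion. Filled points were called and dashed lines mark 1.5-fold. Perp lies furthest to the right after Hira depletion, at 2.25, and called genes lie mostly on the higher side.

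Genes that act on p53 did not share one direction. Of 27 regulators 26 were tested, and Hira depletion gave 1 higher and 4 lower calls, Ubn1 depletion 0 and 0, and Ubn2 depletion 1 and 2. As shares these were 3.85% higher and 15.4% lower after Hira depletion, beside 10.8% and 5.40% of all genes, and 3.85% and 7.69% after Ubn2 depletion, beside 9.59% and 8.75%. For Ubn1 depletion DESeq2 also called 0 of these regulators, and 3 were higher and 6 lower at an unadjusted p under 0.05. The median log2 fold changes were -0.07, 0.02 and 0.00. The DNA damage kinases Chek2, Prkdc and Chek1 fell after Hira depletion, with log2 fold changes of -0.95 ± 0.09, -0.76 ± 0.09 and -0.74 ± 0.09. After Ubn2 depletion Chek2 fell by 0.60 and the kinase Atr by 0.59 on the log2 scale, and Crebbp, an acetyltransferase coactivator of p53, rose by 0.93 ± 0.08.

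Downstream of p21, 26 cell cycle genes that are repressed through the DREAM complex were counted. After Hira depletion edgeR and DESeq2 each called 1 lower, Bub1, a kinase of the mitotic checkpoint (log2 fold change -0.83 ± 0.09), and 0 higher. As shares these were 3.85% lower and 0% higher, beside 5.40% and 10.8% of all genes in edgeR. At an unadjusted p under 0.05, 0 of the 26 were higher and 15 lower, and the median was -0.23. The share of all genes at that unadjusted p was not counted, but 34.9% passed an adjusted p under 0.05 in either direction. After Ubn1 and Ubn2 depletion both tools called 0 in either direction, and the medians were 0.00 and 0.01. At an unadjusted p under 0.05 these were 0 higher and 2 lower after Ubn1 depletion, and 6 higher and 4 lower after Ubn2 depletion. Their summed level was 6607 and 6483 CPM after Ubn2 depletion, where Cdkn1a was highest, beside 6604 and 6489 CPM in control and 5311 and 5591 CPM after Hira depletion.

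Among 24 genes of the BCL2 family and caspases, 3 were called higher and 2 lower after Hira depletion (24 tested), 0 and 1 after Ubn1 depletion (23 tested), and 2 and 4 after Ubn2 depletion (23 tested). The shares were 12.5% higher and 8.33% lower after Hira depletion, near the 10.8% and 5.40% of all genes, and 8.70% and 17.4% after Ubn2 depletion, beside 9.59% and 8.75%. The 0 after Ubn1 depletion was also that of DESeq2, and 2 were higher at an unadjusted p under 0.05. Bcl2l11, which encodes the death activator Bim, rose after Hira depletion (0.75 ± 0.12), while the caspase inhibitors Birc2 (-0.72 ± 0.09) and Xiap (-0.64 ± 0.09) fell. Birc3, of the same inhibitor family and named here after its values were seen, rose (0.74 ± 0.20, edgeR adjusted p = 0.00764). After Ubn2 depletion the death activator Bmf fell (-1.40 ± 0.13) and the survival gene Bcl2l1 rose (0.82 ± 0.09). Hrk, another death activator, fell after Ubn1 depletion (-1.10 ± 0.22). Of 5 other inhibitors of cyclin dependent kinases, 2 rose after Hira depletion, Cdkn1b (0.62 ± 0.10) and Cdkn2b (1.12 ± 0.29). Cdkn2b also rose after Ubn2 depletion (1.55 ± 0.27), and Cdkn1c fell after Ubn1 depletion (-1.02 ± 0.16). As shares of the 5, these were 40% higher after Hira, 20% higher after Ubn2 and 20% lower after Ubn1 depletion. Over all genes the shares were 10.8%, 9.59% and 1.56%.

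Markers of other cell types moved with the depletions. The summed level of 10 heart muscle markers was 341 and 219 CPM in the Ubn2-depleted libraries, where Trp53 and Cdkn1a were highest, and between 15.5 and 23.2 CPM in all other libraries. After Ubn2 depletion 8 of these 10 were called higher and 1 lower, where 9.59% of all genes were called higher and 8.75% lower. Erythroid markers summed to 9.65 and 6.17 CPM after Ubn2 depletion and to between 1.46 and 2.56 CPM elsewhere, with the globins Hbb-bh1 and Hba-x at 0 in all libraries. Markers of 2-cell-like cells, of which 9 of 10 were listed, summed to 3.58 and 6.96 CPM in control, 18.9 and 25.9 with Hira depleted, 13.9 and 14.7 with Ubn1 depleted, and 24.0 and 36.9 with Ubn2 depleted. Neural markers summed to 138 and 146 CPM in control and to 307 and 319 CPM after Hira depletion, 174 and 197 with Ubn1 depleted, and 137 and 143 with Ubn2 depleted, with Dcx at 0 in all libraries. The neural sum hides changes in both directions, as 2 of the 7 neural markers tested were called higher after Ubn2 depletion and 2 lower. Fibroblast markers summed to 26.3 and 26.5 CPM in control, 49.3 and 52.4 with Hira depleted, 28.0 and 32.9 with Ubn1 depleted, and 35.7 and 40.3 with Ubn2 depleted. Of 7 fibroblast markers tested after Ubn2 depletion, 4 were called higher and 1 lower. The shares of all genes for that depletion are those beside the heart muscle markers. Trophectoderm markers summed to 128 and 131 CPM in control and 169 and 189 CPM after Hira depletion. The other depleted libraries had 118 to 128 CPM. Of 8 tested, 4 were called higher and 1 lower after Hira depletion, and 1 higher and 3 lower after Ubn2 depletion. After Ubn1 depletion 1 of 6 was called lower and 0 higher. Primitive endoderm markers summed to between 129 and 158 CPM in all libraries. Of 9 tested, edgeR called 1 higher after Hira depletion and 2 lower after Ubn1 depletion, and DESeq2 called 0. Shares of all genes called higher and lower were 10.8% and 5.40% for Hira and 1.53% and 1.56% for Ubn1 depletion. The part of these cell types in the levels of the p53 target genes was not tested.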

How the data were processed

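The deposited values are raw counts per gene, made by the authors with Trim_galore, STAR (genome GRCm38) and featureCounts and not normalized, in 3 tables that each pair 1 depletion with control. Tool versions, strand setting and the treatment of multi-mapping reads are not given in the sources used here. Control values were identical in the 3 tables (0 differing) and were used once. No columns of other samples were present (0).

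Each comparison used its own 4 libraries in edgeR 4.0.16 (R 4.3.3), with TMM, filterByExpr, quasi-likelihood tests and Benjamini-Hochberg adjustment over all genes tested. Calls needed an adjusted p under 0.05 and over 1.5-fold. Where genes at an unadjusted p under 0.05 are counted, the share of all genes was not counted. The SE was taken as log2 fold change over the root of the F statistic, and intervals are at 95%. Fits were tested on simulated data. With 2 libraries against 2, an exact permutation test (two-sided) cannot go below p = 0.333, so none was used. CPM used TMM factors over all 8 libraries.

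The 10 genes and the lists were chosen with earlier results of these data known. Of each list, up to 3 called genes per depletion with the smallest adjusted p could be named, and any other gene is said to be named after its values were seen. A gene that this rule would name is not reported here. Of the markers, Dux had no row in the tables. The genome itself was not used here, so response elements were searched only in RefSeq promoter windows.

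As alternatives, each fit was repeated with the Wald test of DESeq2 1.42.0 on the same genes, with DESeq2 size factors, unfiltered, on genes with 10 or more counts per library, on 8 libraries together, without the fold threshold, with a replicate block and leaving out single libraries. The block with crossed numbers was added after seeing the data. Pairing was checked on log2(CPM + 0.5) over genes with a mean of at least 1 CPM. Figures were drawn with matplotlib 3.10.9 in Python 3.11.15.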

Additional observations from a re-analysis of the deposited data

Results flagged for a closer look

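Direct tests between depletions separated 5 of the 10 genes, in 8 differences past an edgeR adjusted p under 0.05 and 1.5-fold. Hira against Ubn2 depletion gave 1 of 10 higher and 1 lower, near the 12.0% and 5.61% of all genes. The other comparisons gave 3 higher each, where 9.52% (Hira against Ubn1) and 4.61% (Ubn2 against Ubn1) of all genes were called higher. Cdkn1a was lower after Hira than after Ubn2 depletion (log2 difference -0.81) and higher after Ubn2 than after Ubn1 depletion (1.12). Bbc3 was higher after Hira depletion than after Ubn2 depletion (0.71) and than after Ubn1 depletion (0.71). Ccng1 was higher than after Ubn1 depletion both in Hira-depleted (0.69) and in Ubn2-depleted ESCs (0.85). Eda2r was higher after Hira than after Ubn1 depletion (0.67), and Mdm2 after Ubn2 than after Ubn1 depletion (0.60). In each of these the 2 libraries of one depletion lay above the 2 of the other. The share of all genes separated in this way was not counted for the direct comparisons. Why these genes differed was not tested.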

How the results depend on the processing

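Under DESeq2's Wald test or size factors, 83 of 84 values on these genes and on the other p53 activated genes kept their call or stayed within the replicate spread. Counts of calls moved most with the rule itself. By adjusted p alone, the genes higher were 7 for Hira, 1 for Ubn1 and 9 for Ubn2 depletion against control, 7 for Hira and 8 for Ubn2 against Ubn1 depletion, and 2 higher and 5 lower for Hira against Ubn2 depletion. The Hira count was 5 with at least 10 counts in every library and 5 with all 8 libraries in one fit. The median of Hira against Ubn1 depletion, 0.43, was 0.41 by DESeq2, 0.41 with its size factors, 0.42 without a filter and 0.44 with at least 10 counts. Leaving out 1 library at a time assumes that a lone library varies like the other group. Genes called higher then ranged from 2 to 5 after Hira and from 4 to 6 after Ubn2 depletion and from 2 to 4 for Hira against Ubn1 depletion, and those called lower in Hira against Ubn2 depletion from 1 to 2. Medians ranged from 0.44 to 0.56 after Hira, from 0.53 to 0.63 after Ubn2, from -0.25 to -0.13 for Hira against Ubn2, from 0.34 to 0.49 for Hira against Ubn1 and from 0.39 to 0.43 for Ubn2 against Ubn1 depletion. Signs turned only for uncalled log2 values near 0. These were Trp53 (-0.039 to 0.22) after Hira depletion, Bbc3 (-0.23 to 0.026) after Ubn2 depletion, and after Ubn1 depletion Ccng1 (-0.23 to 0.019), Trp53inp1 (-0.092 to 0.16), Bax (-0.0051 to 0.21), Bbc3 (-0.26 to 0.027), Zmat3 (-0.14 to 0.085) and Eda2r (-0.15 to 0.038). Directly, they were Phlda3 (-0.013 to 0.20) and Zmat3 (-0.0083 to 0.10) for Hira against Ubn2, Trp53 (-0.26 to 0.0041) and Bax (-0.20 to 0.049) for Hira against Ubn1, and Bbc3 (-0.15 to 0.14) for Ubn2 against Ubn1 depletion, the last also 0.00018 with at least 10 counts. The causes were not tested.

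Replicate numbers are shared by the groups, but deviations of same-numbered libraries correlated only between r = -0.138 and 0.130 over 16065 genes, so the numbers were not taken as pairs. Under a replicate block 83 results stayed the same by the rules given above for fold changes, medians and counts. The other 1, Bbc3 after Hira depletion, passed the fold threshold at 0.59, which made 4 genes called higher. The block called 0 after Ubn1 and 5 after Ubn2 depletion. With crossed numbers, Hira against Ubn2 had 1 gene higher and 1 lower and Hira against Ubn1 had 3 higher.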
